A study of Mus musculus with 18 samples.

Results

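A set of 10 genes of skeletal muscle denervation and regeneration, *Tnfrsf12a*, *Pim1*, *Myog*, *Myod1*, *Myf6*, *Chrna1*, *Runx1*, *Gadd45a*, *Ncam1* and *Musk*, were followed in mice fed a high-salt diet. These are 10 of the 21899 genes in the expression profiles, picked by name because of their function and because *Tnfrsf12a* and *Pim1* were higher in muscle of high-salt mice. The muscle comparison of diets therefore took part in the choice, and it is given for the 10 genes as a description without a test. Liver, epididymal white adipose tissue (eWAT) and quadriceps muscle of male wild-type C57BL/6 mice 18 weeks of age were profiled by sequencing of rRNA-depleted RNA. The HSD group received 8% NaCl in the diet with 0.9% saline to drink for 12 weeks, and the CON group received chow and tap water. Each diet had 3 libraries in each tissue, every library of a tissue from a different mouse, and the mouse numbers in the labels recur across tissues. Levels are FPKM, the fragments of a gene scaled by its length and by the total of the library. The 18 libraries held 7628073 to 16637489 fragments as recovered from the FPKM values, so 1 fragment was worth between 0.0601 and 0.131 FPKM for a gene of 1 kb.

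A pair of libraries stood apart in ways that touch these genes. The CON liver library CON16L held skeletal muscle transcripts: 14 of 15 skeletal muscle markers reached 1 FPKM, with a summed level of 5140 FPKM against 4.12 to 8.19 FPKM in the other liver libraries and 59200 to 74000 FPKM in muscle. The remaining marker, *Tnnc2*, was at 0 in CON16L and averaged only 1.75 FPKM in CON muscle. The HSD eWAT library HS3W held all 8 epididymal epithelium markers at 1 FPKM or more, summed to 17500 FPKM against 1.05 to 10.1 FPKM in the other eWAT libraries. Results that rest on either library are given with and without it.

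A muscle fibre that loses its nerve is known to switch on a set of genes that innervation normally keeps low. Myogenin and the other myogenic regulatory factors, which are basic helix-loop-helix factors, bind E-boxes and drive the acetylcholine receptor subunits and MuSK, while RUNX1, GADD45A and NCAM1 also rise in the denervated fibre. TNFRSF12A, also called Fn14, is the receptor for the cytokine TWEAK and is induced in injured or denervated muscle, and PIM1 is a short-lived serine/threonine kinase induced through JAK-STAT signalling. In bulk tissue, fewer cells of a type and less RNA per cell cannot be told apart.

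The promoters are shown because the myogenic factors among the 10 genes act through the E-box, CANNTG. RefSeq sequence (GRCm38.p6) was on hand for 7 of the 10 genes in 9 windows of 250 bases that end at the base before an annotated start, and *Myod1*, *Myf6* and *Ncam1* had no entry. These RefSeq starts can lie inside the gene spans given below, which are from GENCODE M21, as for *Myog* and the first *Pim1* start. The end of such a window then falls within the gene span. E-boxes are in capitals and every sequence runs 5′ to 3′ on the strand of the gene. The first 3 sequences belong to genes that were at or near 0 outside muscle, *Myog* (chr1:134289754-134290003, plus strand), *Chrna1* (chr2:73580339-73580588, minus strand) and *Musk* (chr4:58285712-58285961, plus strand), and the last 2 to the genes that were higher in HSD muscle, *Tnfrsf12a* (chr17:23677450-23677699, minus strand) and *Pim1* at its first start (chr17:29490535-29490784, plus strand).
Myog: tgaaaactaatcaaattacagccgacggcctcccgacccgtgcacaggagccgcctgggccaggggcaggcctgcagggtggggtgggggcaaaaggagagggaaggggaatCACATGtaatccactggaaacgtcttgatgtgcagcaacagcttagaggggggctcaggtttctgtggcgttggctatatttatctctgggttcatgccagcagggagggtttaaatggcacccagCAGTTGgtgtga
Chrna1: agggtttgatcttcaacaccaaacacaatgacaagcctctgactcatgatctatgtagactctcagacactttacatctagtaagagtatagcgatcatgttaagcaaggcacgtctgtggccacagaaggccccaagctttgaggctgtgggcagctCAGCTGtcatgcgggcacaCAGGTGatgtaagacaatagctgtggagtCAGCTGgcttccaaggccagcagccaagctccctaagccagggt
Musk: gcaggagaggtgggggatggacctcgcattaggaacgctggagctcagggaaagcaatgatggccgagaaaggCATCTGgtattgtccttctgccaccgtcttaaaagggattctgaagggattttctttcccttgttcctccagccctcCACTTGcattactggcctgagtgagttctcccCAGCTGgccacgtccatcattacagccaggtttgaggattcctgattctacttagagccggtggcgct
Tnfrsf12a: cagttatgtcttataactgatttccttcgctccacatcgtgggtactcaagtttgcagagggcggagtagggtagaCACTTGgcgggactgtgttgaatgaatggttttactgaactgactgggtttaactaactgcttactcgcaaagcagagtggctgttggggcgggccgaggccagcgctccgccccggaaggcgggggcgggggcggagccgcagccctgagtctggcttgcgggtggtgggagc
Pim1: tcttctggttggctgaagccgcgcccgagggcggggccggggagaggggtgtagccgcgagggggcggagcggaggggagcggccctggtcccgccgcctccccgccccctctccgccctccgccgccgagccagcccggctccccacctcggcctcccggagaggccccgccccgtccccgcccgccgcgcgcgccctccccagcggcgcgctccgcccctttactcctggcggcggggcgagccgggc

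The *Chrna1* window held 3 E-boxes, of which 2 were CAGCTG, the form with GC in its centre, and these began 92 and 44 bases before the start. The *Musk* window also held 3, with a CAGCTG that began 68 bases before the start, and the *Myog* window held CACATG and CAGTTG at 138 and 12 bases. *Tnfrsf12a* had a single E-box, CACTTG at 174 bases, the window at the first *Pim1* start had none, and that at its second start had 2. The 2 windows of *Runx1*, a gene with its highest CON level in eWAT, held 3 and 0, and that of *Gadd45a* held 1. At least 1 E-box was present in 66.2% of 32851 RefSeq promoter windows of the same length, at least 3 in 12.2%, at least 1 CAGCTG in 13% and at least 2 CAGCTG in 1.26%. The STAT motif TTCNNNGAA occurred in none of the 9 windows and in 7.02% of all windows, and the AP-1 motif TGANTCA occurred once, in *Chrna1*, and in 6.75% of all windows. Each motif reads as the same pattern on both strands, and CAGCTG is counted within CANNTG. A match is a run of letters and not a measured binding site.

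In muscle, the 10 genes did not share a direction between the diets. *Tnfrsf12a*, *Pim1* and *Myod1*, 3 of the 10, were higher in every HSD library than in every CON library. In every HSD library 2 were lower, *Chrna1* and *Ncam1*, and 5 overlapped between diets. Among these 5, *Gadd45a* had a higher mean in HSD muscle, and *Myog*, *Myf6*, *Musk* and *Runx1* had a lower one. Differentially expressed genes (DEGs) were called at a Benjamini-Hochberg adjusted p under 0.05 with a log2 fold change of 1 or more in either direction. The fit was limma on log2(FPKM + 0.5), over genes that averaged at least 0.5 FPKM. *Runx1* and *Ncam1*, at a mean of 0.289 and 0.465 FPKM over the 6 muscle libraries, were under that level, and the lowest of the 8 genes that entered was *Chrna1* at 3.11 FPKM. Calls were made for 2 of these 8, both higher, beside 0.323% of the 10834 genes tested in muscle in either direction and 0.102% called higher. That contrast chose the genes, so nothing is read from the 2 calls. In all there were 35 muscle DEGs, 11 higher and 24 lower, with 13 higher and 14 lower after median-ratio scaling, or 54 (15 higher and 39 lower) with the replicate number as a block. Over all genes tested, 6.72% were higher and 15.6% lower in every HSD library, and the median log2 fold change was -0.06.

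**Figure D1:**
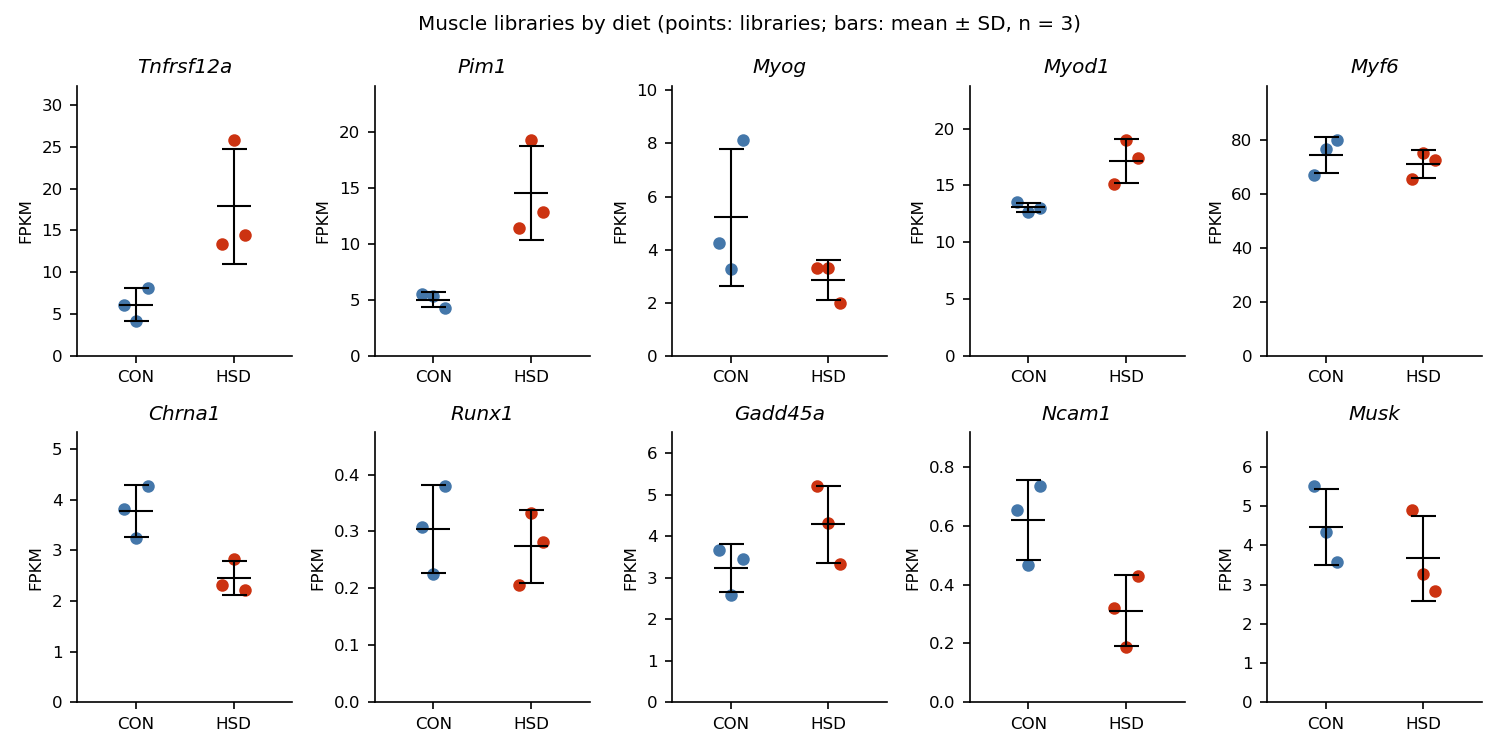
FPKM of the 10 genes in the 6 muscle libraries, one panel per gene with its own axis from 0; points are libraries, horizontal bars the mean and SD of 3 libraries per diet. The 3 HSD libraries lie above the 3 CON libraries for *Tnfrsf12a*, *Pim1* and *Myod1* and below them for *Chrna1* and *Ncam1*.

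*Tnfrsf12a* (ENSMUSG00000023905, chr17:23675445-23677468 in mm10, minus strand) was at 6.13, 4.15 and 8.10 FPKM in the CON muscles and at 13.4, 25.8 and 14.4 FPKM in the HSD muscles. These values came from 95 to 175 fragments in CON and 344 to 648 in HSD libraries. The mean went from 6.13 ± 1.97 to 17.9 ± 6.91 FPKM (SD, n = 3 each), a log2 fold change of 1.45 with a standard error of 0.27. The highest value was in HS3M, and without that library the log2 fold change was 1.16.

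*Pim1* (ENSMUSG00000024014, chr17:29490753-29496112, plus strand) was at 5.52, 5.32 and 4.25 FPKM in CON and at 11.4, 19.3 and 12.9 FPKM in HSD muscle. Its mean was 5.03 ± 0.682 in CON and 14.5 ± 4.21 in HSD (SD, n = 3 each), a log2 fold change of 1.41 with a standard error of 0.19. HS3M was again the highest library, and the log2 fold change was 1.19 without it. Both genes kept their direction whichever library was left out. The call of *Tnfrsf12a* was lost without CON16M (log2 fold change 1.48), CON71M (1.22), CON72M (1.66), HS3M (1.16) or HS5M (1.57), and that of *Pim1* without CON16M (1.48), CON72M (1.31) or HS5M (1.48). Neither was called when genes of low FPKM were kept in the fit.

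The 4 myogenic regulatory factors are MYOD1, MYF5, myogenin and MRF4, and 3 of their genes are among the 10. *Myf6* (ENSMUSG00000035923, chr10:107492853-107494737, minus strand), which encodes MRF4, the factor of mature fibres, had the highest level of the 10 genes in muscle. It was at 67.1, 76.4 and 79.9 FPKM in CON and at 65.4, 75.2 and 72.4 FPKM in HSD muscle, with 1099 to 1234 fragments per library. The diets overlapped, and the log2 fold change was -0.067 with a standard error of 0.12, or 0.02 under median-ratio scaling.

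*Myod1* (ENSMUSG00000009471, chr7:46376474-46379099, plus strand), the determination factor that is more abundant in fast fibres and activated satellite cells, was at 13.5, 12.7 and 13 FPKM in CON muscle. In HSD muscle it was at 15.1, 19.0 and 17.4 FPKM, above each CON library. The mean was 13 ± 0.403 in CON and 17.1 ± 1.94 in HSD, a log2 fold change of 0.38 with a standard error of 0.12. That is well under the fold of a call, and 728 of all genes tested were likewise higher in every HSD library.

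*Myog* (ENSMUSG00000026459, chr1:134289989-134292548, plus strand) encodes myogenin, which drives terminal differentiation and rises strongly after loss of the nerve. It was at 4.24, 3.28 and 8.13 FPKM in CON and at 3.32, 3.30 and 2 FPKM in HSD muscle, from 37 to 136 fragments per library. The groups overlapped, since the CON library CON71M lay below HS2M and HS3M. Its log2 fold change was -0.70 with a standard error of 0.29, the largest among the genes that were not called, and it was -0.36 without CON72M, the library at 8.13 FPKM.

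*Chrna1* (ENSMUSG00000027107, chr2:73563215-73580338, minus strand) encodes the alpha subunit of the muscle acetylcholine receptor, which spreads over the whole fibre after denervation. It was at 3.82, 3.25 and 4.26 FPKM in CON and at 2.31, 2.83 and 2.21 FPKM in HSD muscle. Every HSD library was below every CON library, with 120 to 161 against 169 to 222 fragments. The mean went from 3.78 ± 0.505 to 2.45 ± 0.332 FPKM, a log2 fold change of -0.54 with a standard error of 0.14.

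*Musk* (ENSMUSG00000057280, chr4:58285960-58374303, plus strand) encodes the receptor tyrosine kinase through which nerve-derived agrin clusters the acetylcholine receptor. It was at 5.50, 4.34 and 3.58 FPKM in CON and at 4.89, 3.28 and 2.84 FPKM in HSD muscle. The diets overlapped, with a log2 fold change of -0.26 and a standard error of 0.20.

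*Ncam1* (ENSMUSG00000039542, chr9:49502136-49798925, minus strand) encodes the neural cell adhesion molecule, which in muscle marks satellite cells, the junction and denervated fibres, and in nerve marks Schwann cells that do not form myelin. It was at 0.653, 0.468 and 0.733 FPKM in CON and at 0.321, 0.187 and 0.428 FPKM in HSD muscle. These were 48 to 75 fragments in CON and 21 to 46 in HSD libraries, and every HSD library was lower. With genes of low FPKM kept in the fit, the log2 fold change was -0.47 with a standard error of 0.15. The summed level of 10 nerve and Schwann cell markers was 35.2 to 52.3 FPKM in CON and 33.3 to 56.5 FPKM in HSD muscle, with none of the 10 at 0 in all libraries of a diet.

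*Runx1* (ENSMUSG00000022952, chr16:92601466-92826149, minus strand), a transcription factor known for blood formation and induced in denervated fibres, was low in muscle. It was at 0.308, 0.225 and 0.379 FPKM in CON and at 0.206, 0.333 and 0.282 FPKM in HSD muscle, from 32 to 52 fragments per library, and the diets overlapped. *Gadd45a* (ENSMUSG00000036390, chr6:67035096-67037457, minus strand), a stress-induced gene that promotes fibre atrophy, was at 3.68, 2.58 and 3.45 FPKM in CON and at 5.20, 4.32 and 3.34 FPKM in HSD muscle. Its diets overlapped through HS5M, and its log2 fold change was 0.35 with a standard error of 0.18.

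Other genes of the same pathways were taken from lists that were drawn up with earlier results of these data known. Over all genes tested in muscle, 0.323% were called, and 6.72% were higher and 15.6% lower in every HSD library. These shares stand beside the counts of each list that follows. Of 15 genes of the acetylcholine receptor and neuromuscular junction tested in muscle, 0 were called, 0 were higher and 3 were lower in every HSD library. Their median log2 fold change was -0.17 beside -0.06 for all genes. *Chrnd*, the delta subunit of the receptor, was at 1.33, 0.899 and 1.31 FPKM in CON and at 0.891, 0.749 and 0.490 FPKM in HSD muscle (log2 fold change -0.48, limma adjusted p = 0.234). *Ache*, the esterase of the synaptic cleft, was at 9.57, 10.5 and 10.7 FPKM in CON and at 8.16, 6.28 and 7.08 FPKM in HSD muscle (-0.49, limma adjusted p = 0.108). Neither passed the test.

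Among 16 further genes of the denervation response that were tested, 1 was called, *Fbxo32*, which encodes the ubiquitin ligase atrogin-1 of muscle atrophy. *Fbxo32* was at 58.0, 67.9 and 49.1 FPKM in CON and at 183, 152 and 112 FPKM in HSD muscle, a log2 fold change of 1.33 with a standard error of 0.19 (limma adjusted p = 0.0213). All 3 HSD libraries were above all CON libraries. The call of *Fbxo32* was lost without CON16M (log2 fold change 1.33), CON72M (1.21) or HS3M (1.30), and with genes of low FPKM kept in the fit. The other ligase of this pair, *Trim63* or MuRF1, had a log2 fold change of 0.88 (limma adjusted p = 0.0654), and the embryonic and perinatal myosins *Myh3* and *Myh8*, which return in regenerating fibres, had -2.34 and -1.64 (limma adjusted p = 0.116 and 0.183). *Sln*, or sarcolipin, had -0.74 (limma adjusted p = 0.0452), under the fold of a call. *Eda2r* had 0.89 (limma adjusted p = 0.0974). *Trim63*, *Myh3*, *Myh8*, *Sln* and *Eda2r* were named after their values were seen, and none of them was called. The median of the 16 genes was -0.35, and 6 of them had a positive log2 fold change. In every HSD library 3 were higher and 5 lower, beside 6.72% and 15.6% of all genes tested.

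Of 22 genes of satellite cells and the myogenic programme, 0 were called, and the median log2 fold change was -0.032. Of 18 genes of the TWEAK and NF-kB pathway, 0 were called, 0 were higher and 4 were lower in every HSD library, with a median of -0.12. Over all genes tested, 0.323% were called and 15.6% were lower in every HSD library. *Nfkb2*, a subunit of NF-kB, had the largest difference among these 4, at 3.09, 2.56 and 2.20 FPKM in CON and 1.51, 1.29 and 1.79 FPKM in HSD muscle (-0.62, limma adjusted p = 0.0977). Of 16 genes of PIM kinases and JAK-STAT signalling, 0 were called, 2 were higher and 2 were lower in every HSD library, and the median was 0.01. The related kinase *Pim3* was at 13.4, 15.6 and 10.6 FPKM in CON and 19.9, 15.7 and 19.2 FPKM in HSD muscle (0.46, limma adjusted p = 0.198). *Stat5a* lay in the other direction, at 1.78, 1.81 and 1.55 FPKM in CON and 1.46, 1.10 and 1.27 FPKM in HSD muscle (-0.32, limma adjusted p = 0.286).

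Among 7 partners of GADD45 and RUNX, 0 were called and the median was 0.29. *Gadd45b*, a paralog of *Gadd45a*, was at 9.50, 8.77 and 9.40 FPKM in CON and 18.2, 16.1 and 15.7 FPKM in HSD muscle. Its log2 fold change of 0.82 (limma adjusted p = 0.0196) passed the adjusted p and stayed under the fold of a call. The third paralog, *Gadd45g*, lay in the other direction at 59.3, 48.2 and 46.9 FPKM in CON and 41.7, 17.9 and 40.0 FPKM in HSD muscle (-0.71, limma adjusted p = 0.252). Of 10 immediate early genes, 0 were called and the median was -0.21.

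Markers of other cell types moved in the same libraries. The summed level of 10 macrophage markers was 54.6 to 87.6 FPKM in CON and 39.8 to 45.4 FPKM in HSD muscle, with *C1qa*, a complement subunit, called lower (-1.07, limma adjusted p = 0.0213). That of 8 fibroblast markers was 130 to 171 FPKM in CON and 116 to 124 FPKM in HSD muscle, with *Col3a1*, a collagen chain, called lower (-1.46, limma adjusted p = 0.016). Of 8 macrophage markers tested, 1 had a positive log2 fold change, *Cd163* at 0.32, and the median was -0.58. Of the 8 fibroblast markers, 2 had a positive one, *Dcn* at 0.16 and *Pdgfra* at 0.09, and the median was -0.26. No marker of either list was at 0 in all libraries of a diet, and the part of these cells in the differences of *Chrna1*, *Ncam1* or *Tnfrsf12a* was not tested. Fibre genes themselves gave 2 calls among 15 skeletal muscle markers, *Myh2* (-1.06, limma adjusted p = 0.0394) and *Myh1* (-1.01, limma adjusted p = 0.0452), which encode fast myosins. Another fast myosin, *Myh4*, named after its value was seen, was at 0.14 (limma adjusted p = 0.749). Of the 15 markers, 9 had a positive log2 fold change, and the median was 0.027. The sum of the list was 59200 to 66300 FPKM in CON and 67400 to 74000 FPKM in HSD muscle. The calls of *C1qa*, *Col3a1*, *Myh1* and *Myh2* were lost when CON16M, CON72M, HS3M or HS5M was left out, and those of the myosins also without CON71M. Over all settings they had log2 fold changes of -1.24 to -0.96, -1.67 to -1.32, -1.22 to -0.90 and -1.24 to -0.89. Endothelial and adipocyte markers, 6 of each, gave 0 calls and a median of -0.23 in either list.

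**Figure D2:**
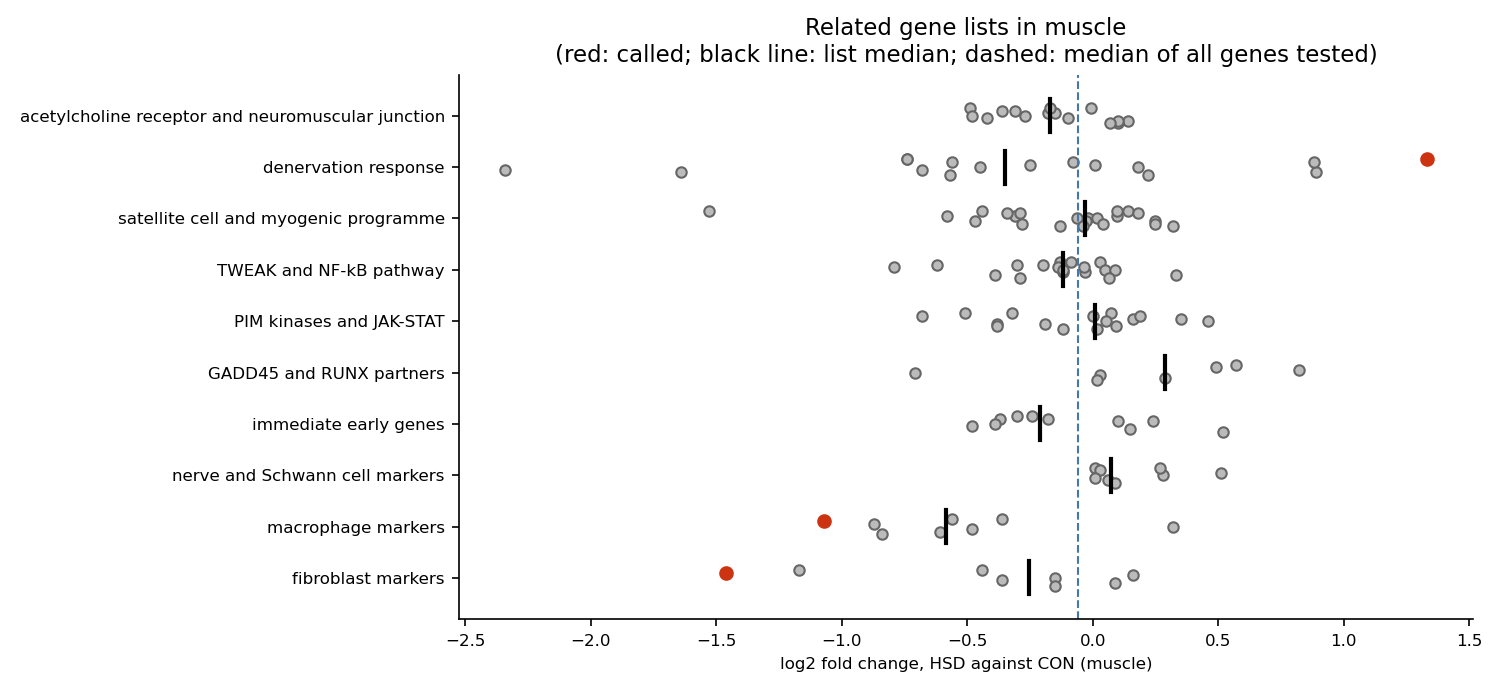
Log2 fold change of HSD against CON in muscle (x axis) for the tested genes of 10 related lists (rows); each point is a gene, red points were called, black bars are the medians of the lists and the dashed line is the median of all genes tested, -0.06. The called genes shown are *Fbxo32* on the right at 1.33, and *C1qa* and *Col3a1* on the left.

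The genes whose pattern over the 6 muscle libraries was nearest to that of *Tnfrsf12a* were found by the root mean square difference of log2(FPKM + 0.5), each centred on its mean, among 10833 genes. They were *Tmem100* at 0.296, *Slc38a2* at 0.315 and *Tgif1* at 0.345. For *Pim1* they were *Tmem100* at 0.195, *Tpx2* at 0.219 and *Slc38a2* at 0.241. *Tmem100* was at 9.44, 8.51 and 8.96 FPKM in CON and at 16, 28.5 and 17.0 FPKM in HSD muscle, so that it too was highest in HS3M. *Slc38a2*, an amino acid transporter, was at 17.7, 16.1 and 18.0 FPKM in CON and at 42.4, 49.7 and 32.6 FPKM in HSD muscle. The choice is by likeness alone, over 6 libraries that share the diet contrast.

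Across tissues, the 10 genes fell into those at or near 0 outside muscle and those present in all 3 tissues. *Myog*, *Myod1*, *Myf6*, *Chrna1* and *Musk* were at 0 in 5 of 6 liver libraries, the exception being CON16L, and at no more than 0.464 FPKM in any eWAT library. *Tnfrsf12a*, *Pim1* and *Gadd45a* were at 0.966 FPKM or more in all 18 libraries. *Runx1* and *Ncam1* were at 0.81 FPKM or less in all libraries except HS3W of eWAT.

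**Figure D3:**
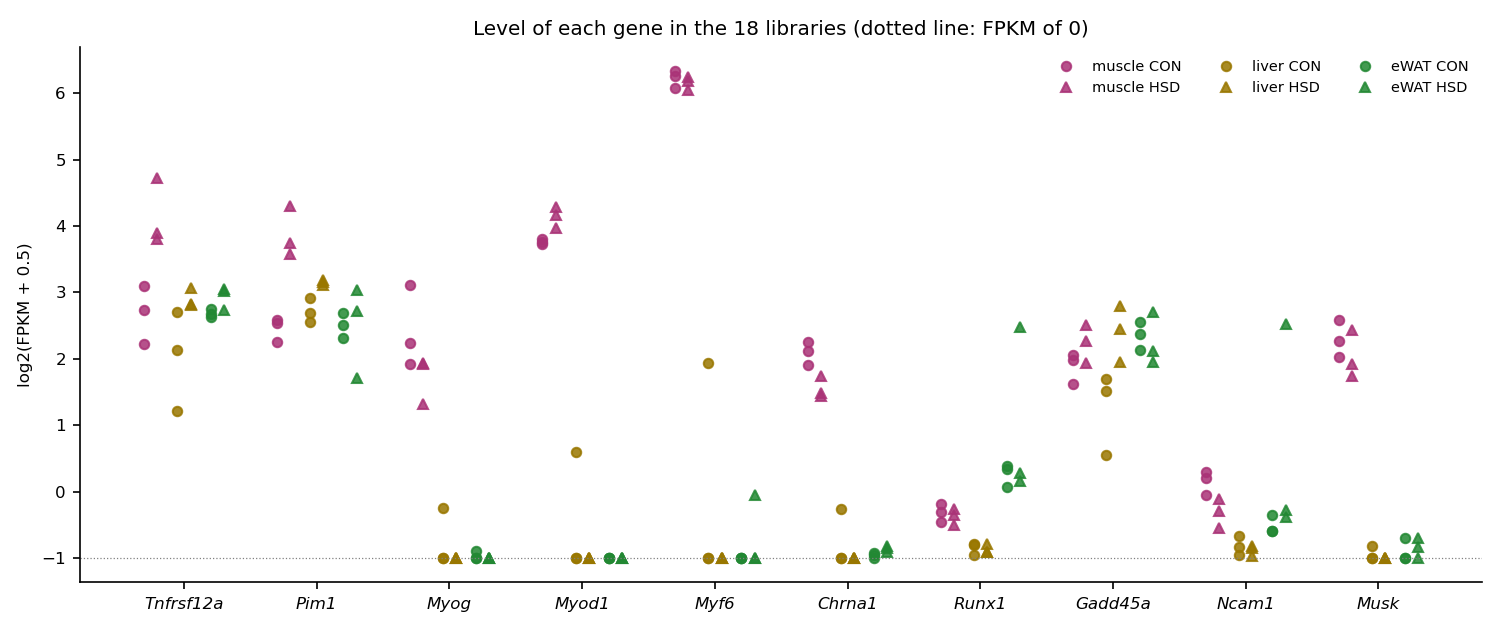
Level of the 10 genes as log2(FPKM + 0.5) in all 18 libraries, coloured by tissue, with circles for CON and triangles for HSD; the dotted line marks an FPKM of 0. *Myog*, *Myod1*, *Myf6*, *Chrna1* and *Musk* sit at or near that line outside muscle, apart from 1 liver library, while *Tnfrsf12a*, *Pim1* and *Gadd45a* are present in all 3 tissues, with HSD muscle highest for *Tnfrsf12a* and *Pim1*.

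CON muscle was compared with CON liver and with CON eWAT by limma, 3 against 3 libraries each, and both comparisons share the CON muscle libraries. Against liver, 5 of the 8 genes tested were called, all higher in muscle, beside 54.0% of 11500 genes called in either direction and 37.6% called higher. The split of all calls was 4320 higher and 1892 lower, or 2728 and 2794 after median-ratio scaling. *Myog*, *Myod1*, *Chrna1* and *Musk* passed the minimum level through muscle alone and *Myf6* through muscle and CON16L, so these genes had to differ, nothing is read from the calls, and their values are given without a p. The log2 difference was 6.24 with a standard error of 0.76 for *Myf6*, 4.23 with 0.42 for *Myod1* and 3.17 with 0.35 for *Myog*. It was 3.23 with 0.18 for *Musk* and 2.84 with 0.24 for *Chrna1*. All 5 were higher in each muscle library than in each liver library, CON16L included, as were 53.2% of the genes tested.

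The folds of these 5 genes rested on CON16L, the liver library with muscle transcripts. Liver averaged 0.115 FPKM for *Myog*, 0.339 for *Myod1*, 1.11 for *Myf6*, 0.111 for *Chrna1* and 0.0228 for *Musk*, all of it from this library. In it *Myf6* was at 3.34 FPKM (49 fragments), *Myod1* at 1.02 (22), *Myog* at 0.345 (6), *Chrna1* at 0.333 (17) and *Musk* at 0.0683 (3). As a share of the CON muscle mean this was 1.53% for *Musk* to 8.82% for *Chrna1*, next to a median of 5.62% for the 15 skeletal muscle markers, which ranged from 0% to 42.2% for *Mb*. In the other 2 CON liver libraries there were 0 fragments of the 5 genes. Against a floor of 3 fragments over these 2 libraries, muscle was then at least 526-fold higher for *Myf6*, 136-fold for *Myod1*, 94.4-fold for *Musk*, 92.7-fold for *Chrna1* and 43.6-fold for *Myog*. Floors and fragments cover counting error only.

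*Tnfrsf12a*, *Pim1* and *Gadd45a* did not pass the test between CON muscle and CON liver with all libraries and FPKM as deposited. *Tnfrsf12a* averaged 6.13 ± 1.97 FPKM in muscle and 3.93 ± 2.11 in liver (log2 difference 0.66, standard error 0.41, limma adjusted p = 0.182). It was called, at 1.00 (limma adjusted p = 0.0386), without CON16L, the liver library with the highest value of 6.05 FPKM. *Pim1* averaged 5.03 ± 0.682 and 6.12 ± 0.833 FPKM (-0.26, standard error 0.19, limma adjusted p = 0.263), and *Gadd45a* 3.24 ± 0.577 and 2.02 ± 0.929 FPKM (0.64, standard error 0.31, limma adjusted p = 0.106). Without CON16L *Gadd45a* was at 0.86 (limma adjusted p = 0.0392), under the fold of a call, and *Pim1* at -0.34 (0.125). After median-ratio scaling the differences were 0.067 for *Tnfrsf12a* (limma adjusted p = 0.887), -0.87 for *Pim1* (0.01, under the fold of a call) and 0.093 for *Gadd45a* (0.802). *Runx1* and *Ncam1* were under the level for a test and were higher in each muscle library, by 5.49-fold and 8.94-fold of the means, or 6.43-fold and 15.8-fold without CON16L.

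Against eWAT the same 5 genes were called higher in muscle, beside 56.8% of 12607 genes called in either direction and 8.5% called higher. The split of all calls was 1072 higher and 6095 lower, or 2641 and 2533 after median-ratio scaling. All 5 were higher in each muscle library than in each eWAT library, as were 16.6% of the genes tested. They passed the minimum level through muscle alone and so had to differ, and their values are again given without a p. *Myf6* and *Myod1* had 0 fragments in the 3 CON eWAT libraries, and muscle was at least 1500-fold and 387-fold higher against the floor of 3 fragments over the group. Their log2 differences were 7.22 and 4.76. *Myog* was at 1 fragment in CON72W and 0 in the other CON eWAT libraries, with a log2 difference of 3.39. *Chrna1* averaged 0.0145 FPKM in eWAT, a log2 difference of 3.05, and *Musk* 0.0385 FPKM, a log2 difference of 3.20.

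*Runx1* and *Gadd45a* were higher in each CON eWAT library than in each CON library of the other tissues. *Runx1* was at 0.773, 0.549 and 0.810 FPKM in CON eWAT, above the 0.379 FPKM of the highest CON muscle library, and 72.4% of the genes tested were likewise lower in each muscle library. The log2 difference of muscle against eWAT was -0.59 with a standard error of 0.17 (limma adjusted p = 0.00978), under the fold of a call. It passed that fold with a pseudocount of 0.1 (-1.01) and with limma voom on the recovered fragments (-1.24). *Ncam1*, in contrast, was higher in each CON muscle than in each CON eWAT library, 0.618 ± 0.136 against 0.200 ± 0.0698 FPKM. Of the genes tested, 16.6% were likewise higher in each muscle library. *Ncam1* was under the level for a test, except after median-ratio scaling, where it was called at 1.13. In that setting 5174 of 12329 genes were called in either direction.

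Levels of the widely expressed genes between muscle and eWAT depended on the scaling, since the median of all genes was -0.96 before and 0.0059 after median-ratio scaling. *Tnfrsf12a* differed by 0.0017 with a standard error of 0.20 (limma adjusted p = 0.994), but by 1.02 (limma adjusted p = 0.00239) after that scaling, which is a call. *Pim1* differed by -0.042 (limma adjusted p = 0.77) and by 0.96 after scaling, and *Gadd45a* by -0.47 (limma adjusted p = 0.0184) and by 0.51. Relative to the median gene, the 3 were thus higher in muscle, and as FPKM they were level or lower. Against liver the median was 0.59, and 0.028 after scaling.

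**Figure D4:**
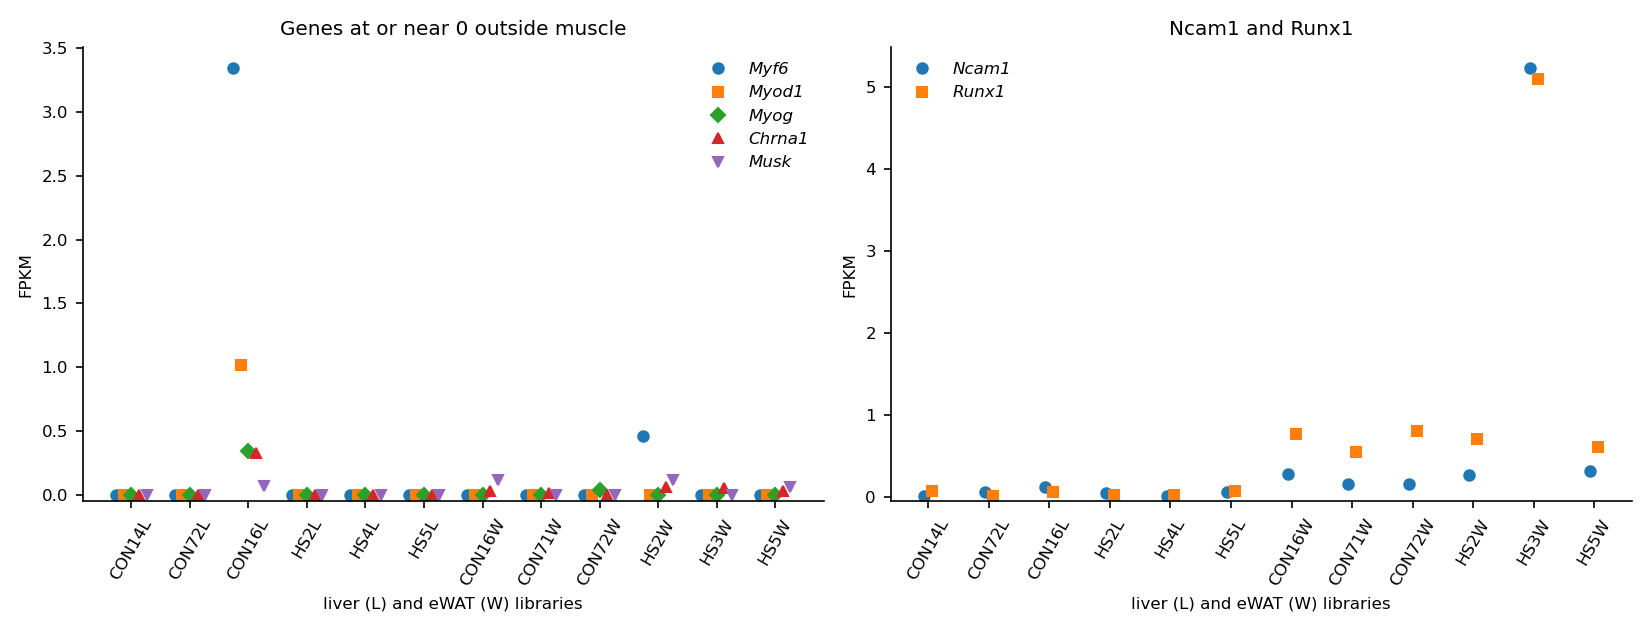
FPKM in the 12 liver and eWAT libraries, of *Myf6*, *Myod1*, *Myog*, *Chrna1* and *Musk* (left) and of *Ncam1* and *Runx1* (right); each point is a library and no error bar is drawn. The muscle genes are above 0.3 FPKM in CON16L, except *Musk* at 0.0683, and in HS2W for *Myf6* at 0.464, and *Ncam1* and *Runx1* stand at 5.23 and 5.10 FPKM in HS3W.

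The diet comparison in liver was not used to choose the genes. *Tnfrsf12a*, *Pim1* and *Gadd45a* were higher in every HSD liver library than in every CON liver library, and none of the 3 passed the test. Of the 4 genes tested in liver, 0 were called, beside 0.0% of 10317 genes. limma gave 592 genes at an unadjusted p under 0.05, a smallest adjusted p of 0.0918, and 0 calls with voom on the recovered fragments. The share of all genes tested that were higher in every HSD liver library was 8.62%, and their median log2 fold change was 0.13.

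*Tnfrsf12a* was at 1.83, 3.90 and 6.05 FPKM in CON liver and at 7.85, 6.53 and 6.60 FPKM in HSD liver. Its log2 fold change was 0.88 with a standard error of 0.38 (limma adjusted p = 0.764), and it ranged from 0.48 without CON14L to 1.26 without CON16L and HS5L. *Pim1* was at 7.02, 5.98 and 5.37 FPKM in CON and at 8.45, 8.57 and 8.18 FPKM in HSD liver, with a log2 fold change of 0.43 and a standard error of 0.23 (limma adjusted p = 0.764). *Gadd45a* had the largest difference, from 0.966, 2.35 and 2.73 FPKM to 6.47, 3.39 and 4.97 FPKM, a log2 fold change of 1.15 with a standard error of 0.37 (limma adjusted p = 0.764).

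The share of fragments from the 13 mitochondrial protein genes differed between the liver libraries. It was 60.8%, 37.8% and 25.7% in the CON livers CON14L, CON72L and CON16L, and 16.3%, 15.4% and 44.4% in the HSD livers HS2L, HS4L and HS5L. CON14L, with the largest share, was the lowest library for *Tnfrsf12a* and *Gadd45a*, and the highest CON liver library for *Pim1* at 7.02 FPKM. HS5L, at 44.4%, was at 6.60 FPKM for *Tnfrsf12a* and 4.97 FPKM for *Gadd45a*, above each CON liver library. The part of this share in the differences of these genes was not tested. Most genes of some gene lists shared a direction between the diets. Of 8 hepatocyte markers, 7 had a positive log2 fold change (median 0.89, 2 higher in every HSD library), with a summed 12300 to 63500 FPKM in CON and 27000 to 61700 FPKM in HSD liver. Of 9 immediate early genes tested, 8 had a positive one (median 1.02), and of 7 macrophage markers tested, 1 did (median -0.75), their sum of 10 markers being 35.7 to 57.0 FPKM in CON and at most 31.2 FPKM in HSD liver. None of these lists gave a call, and no marker of the hepatocyte and macrophage lists was at 0 in all libraries of a diet. Their part in the differences of *Tnfrsf12a*, *Pim1* and *Gadd45a* was not tested. With median-ratio scaling the log2 fold change of *Pim1* was 0.33. Without CON16L and HS5L, which the study left out, 35 genes were called in liver (20 higher and 15 lower), and none of the 10 genes was among them. In that fit *Tnfrsf12a* was at 1.26 (limma adjusted p = 0.0783), *Gadd45a* at 1.35 (0.0825) and *Pim1* at 0.37 (0.426). Without CON16L alone they were at 1.22 (limma adjusted p = 0.506), 1.37 (0.506) and 0.35 (0.613). *Myf6* entered the liver fit only through CON16L, with a log2 fold change of -0.98 and a standard error of 0.77 (limma adjusted p = 0.764).

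**Figure D5:**
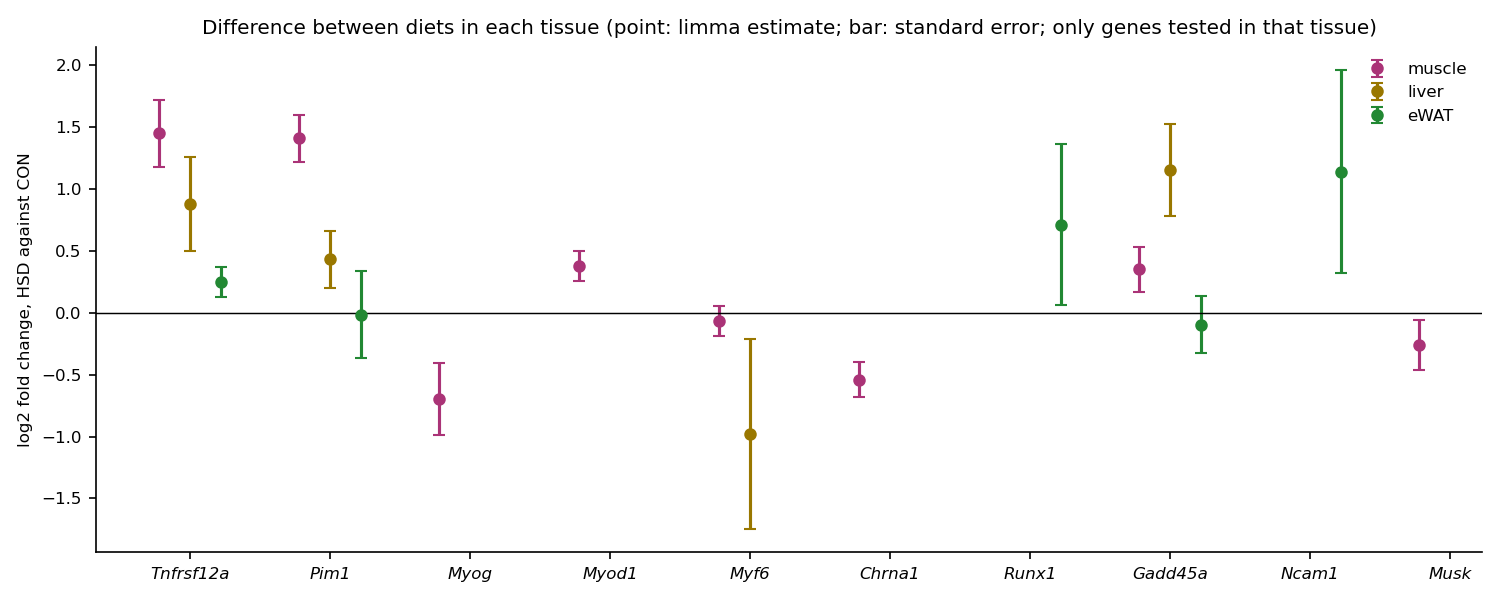
Log2 fold change of HSD against CON for each of the 10 genes in muscle, liver and eWAT, shown where the gene was tested; points are limma estimates and bars 1 standard error either side. *Tnfrsf12a* lies at 1.45 in muscle, 0.88 in liver and 0.25 in eWAT, and the widest bars are those of *Ncam1* and *Runx1* in eWAT and *Myf6* in liver.

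In eWAT, 0 of the 5 genes tested were called, beside 0.0% of 13740 genes. limma gave 2298 genes at an unadjusted p under 0.05, a smallest adjusted p of 0.083, and 0 calls with voom. *Tnfrsf12a* was at 6.23, 5.87 and 5.66 FPKM in CON and at 7.59, 6.14 and 7.75 FPKM in HSD eWAT, and the diets overlapped through HS3W. Its log2 fold change was 0.25 with a standard error of 0.12 (limma adjusted p = 0.339). Without HS3W it was 0.35 with a standard error of 0.079 (limma adjusted p = 0.0563), which is not a call. *Pim1* was at 5.19, 4.46 and 5.95 FPKM in CON and at 7.69, 2.78 and 6.07 FPKM in HSD eWAT, a log2 fold change of -0.015 (limma adjusted p = 0.982) that was 0.37 without HS3W. *Gadd45a* overlapped between the diets, at 4.66 ± 0.752 and 4.42 ± 1.42 FPKM (-0.096, limma adjusted p = 0.83), and was at -0.32 without HS3W (limma adjusted p = 0.221).

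HS3W, the eWAT library with epididymal transcripts, held most of the *Ncam1* and *Runx1* fragments of HSD eWAT. *Ncam1* was at 5.23 FPKM (557 fragments) in HS3W and at 0.271 and 0.326 FPKM in the other HSD libraries, against 0.281, 0.160 and 0.160 FPKM in CON. *Runx1* was at 5.10 FPKM (755 fragments) in HS3W and at 0.713 and 0.616 FPKM in the others. The log2 fold changes were 1.14 for *Ncam1* (limma adjusted p = 0.494) and 0.71 for *Runx1* (limma adjusted p = 0.561). Without HS3W that of *Runx1* was -0.05, and *Ncam1* was under the level for a test. Without this library 160 genes were called in eWAT (29 higher and 131 lower), and none of the 10 genes was among them.

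The 5 muscle genes had at most 8 fragments in an eWAT library. *Myod1* had 0 fragments in all 6 libraries, *Myf6* had 8 fragments in HS2W and 0 in the others, and *Myog* had 1 fragment in CON72W. *Chrna1* had 2, 1 and 0 fragments in CON and 4, 3 and 2 in HSD eWAT, in FPKM 0.0284, 0.015 and 0 against 0.0668, 0.0556 and 0.0348. Its HSD libraries were each higher, as were those of 16.2% of the genes tested, but *Chrna1* was under the level for a test. Skeletal muscle markers were at a summed 30.5 to 41.7 FPKM in CON and 53.3 to 128 FPKM in HSD eWAT. The 128 FPKM was in HS3W, where *Des* alone was at 77.2 FPKM, and HS2W and HS5W were at 63.9 and 53.3 FPKM. The part of these markers was not tested. *Musk* had 7, 0 and 0 fragments in CON and 6, 0 and 3 in HSD eWAT.

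Over all 18 libraries, the gene nearest in pattern to *Myog* among 13066 genes was *Chrna1*, at a root mean square difference of 0.238. The genes nearest to the other members were *Atp1b4* for *Chrna1* (0.113), *Slco5a1* for *Musk* (0.196), *Ppp1r3a* for *Myf6* (0.224), *Art5* for *Myod1* (0.325), *Arnt2* for *Ncam1* (0.22), *Mmgt2* for *Runx1* (0.205) and *Ppp2r5e* for *Gadd45a* (0.265). *Atp1b4* had a level close to that of *Chrna1* in each muscle library, at 3.77, 3.22 and 3.43 FPKM in CON and at 2.38, 2.33 and 2.59 FPKM in HSD muscle, so that it too was lower in every HSD library. *Ppp1r3a*, a glycogen-targeting subunit of protein phosphatase 1 in muscle, was at 77.1, 104 and 82.8 FPKM in CON and 101, 102 and 76.5 FPKM in HSD muscle, where its order over the libraries differed from that of *Myf6*. The difference between tissues sets most of this likeness for the muscle genes.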

How the data were processed

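RNA of liver, eWAT and quadriceps muscle was sequenced in 18 libraries. Per the methods of the study, the authors removed adaptors with cutadapt, mapped the pairs with hisat2 (mm10) and obtained FPKM per gene from cuffdiff with Ensembl gene models. These FPKM were used as deposited. The submitters' processing notes also name HTSeq 0.9.1 and mm9, without saying where they were used. Fragments were recovered from FPKM with exon lengths of GENCODE M21: 97.5% of the 18822 genes above 0, and all 10 genes described here, gave whole numbers within 0.02, values above 10000 fragments not being tested.

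Each comparison was fitted alone by limma 3.58.1 (R 4.3.3), with eBayes, a variance trend and 2-sided tests, after adding a pseudocount of 0.5 to FPKM. Fold changes on this scale understate those of low genes. The script was tested on simulated data. Alternatives changed the pseudocount to 0.1 or 1, dropped the minimum level or raised it to 1 FPKM, applied median-ratio scaling, used voom on the recovered fragments, added the replicate number or mouse as a block, omitted single libraries, and kept the libraries that the study used. The genes and lists were chosen with earlier results of these data known. Named genes are the 10, up to 3 called genes per list and direction or otherwise up to 2 whose diets did not overlap, and the nearest in pattern, apart from those said to be named after their values were seen. CON and HSD mice are different animals. Deviations from the group means correlated across genes between same-numbered muscle libraries at 0.383, 0.177 and 0.184, so the block is given beside the muscle count. Muscle pairs of different numbers ranged from -0.347 to 0.18, the latter for CON72M and HS3M. The labels do not say what a replicate number shares. CON muscle and CON eWAT came from mice of the same numbers, and the mouse block changed no call of the 10 genes there.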

Additional observations from a re-analysis of the deposited data

Results flagged for a closer look

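*Chrna1*, the alpha subunit of the muscle acetylcholine receptor, lay on opposite sides in 2 tissues. Every HSD library was below every CON library in muscle, and every HSD library was above every CON library in eWAT. *Chrna1* was not called in muscle, and in eWAT it was under the level for a test. The mean was 2.45 FPKM in HSD against 3.78 FPKM in CON muscle, and 0.0524 FPKM in HSD against 0.0145 FPKM in CON eWAT. In muscle 15.6% of all genes tested were lower in every HSD library, and in eWAT 16.2% were higher. Both shares cover only genes that averaged at least 0.5 FPKM, a level *Chrna1* did not reach in eWAT. The eWAT values rest on 9 fragments in HSD and 3 in CON over 3 libraries each. The lowest HSD and the highest CON library, HS5W and CON16W, had 2 fragments each and differed in FPKM only through their library totals. Skeletal muscle markers were at a summed 53.3 to 128 FPKM in HSD and 30.5 to 41.7 FPKM in CON eWAT. The 128 FPKM was in HS3W, the library with epididymal transcripts, and HS2W and HS5W were at 63.9 and 53.3 FPKM. The difference between the tissues, and the part of these markers, was not tested.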

How the results depend on the processing

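The 35 muscle DEGs became 7 with genes of low FPKM kept in the fit, 54 with the replicate block and 63 with voom on recovered fragments. With 1 library left out they ranged from 10 (without CON72M) to 61 (without HS2M), with 13 without CON16M, 15 without HS3M and 23 without HS5M. In liver the 0 calls became 35 with the libraries of the study and ranged from 0 to 1 with 1 library left out (1 without CON16L). In eWAT they ranged from 0 to 160 (160 without HS3W, 1 without CON72W). In muscle, *Tnfrsf12a* was called in 8 of 14 settings and *Pim1* in 10 of 14. The muscle contrast chose these genes, so nothing is read from their calls. *Myf6* alone of the 10 genes changed sign in muscle (-0.14 to 0.02). Of the list genes called in muscle, *Fbxo32* was called in 10 of 14 settings, *Col3a1* in 9, *C1qa* in 8 and *Myh1* and *Myh2* in 7 each, none with another sign. None of the 10 genes was called in liver or eWAT under any setting.

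Some differences changed sign, among them 0.71 for *Runx1* in eWAT and -0.47 for *Gadd45a* between CON muscle and CON eWAT. In eWAT by diet with 1 library left out, *Pim1* ranged from -0.29 to 0.37 (0.079 without CON72W), *Runx1* from -0.05 to 1.11 and *Gadd45a* from -0.32 to 0.06 (0.005 without CON71W). For CON muscle against CON eWAT, *Tnfrsf12a* was -0.0015 with a pseudocount of 0.1 and -0.0065 with voom, and ranged from -0.21 to 0.23 with 1 library left out. *Pim1* was 0.96 after median-ratio scaling and ranged from -0.14 to 0.063, and *Gadd45a* was 0.51 after that scaling (limma adjusted p = 0.0168, from 0.0184). The cause of these shifts was not tested.

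In liver the correlations of same-numbered libraries were -0.473, -0.213 and 0.395, and in eWAT -0.197, 0.0608 and 0.414, so the numbers do not pair them, and the replicate block gave 0 calls in both. No other call of the 10 genes changed with a block. *Runx1* and *Ncam1* in muscle rest on 21 to 75 fragments per library, which limits their precision, and *Myog*, *Myod1*, *Myf6*, *Chrna1* and *Musk* outside muscle are at the limit of detection at this depth. When 1 library is left out of a group of 3, the remaining 2 set its spread together with the other group.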
